A study of Mus musculus with 6 samples.

Results

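Fatty acid oxidation genes are taken here as 34 named genes of fatty acid uptake, activation, the carnitine shuttle, mitochondrial and peroxisomal beta oxidation and the targets of PPAR receptors. They were found by gene symbol among the 55401 gene IDs of the count tables, and all 34 had enough reads to be tested. The genes were read in polyadenylated RNA of primary mouse cholangiocytes, the epithelial cells of the bile ducts, from mice with polycystic liver disease (PLD, 3 libraries) and from wild-type mice (WT, 3 libraries), both 3 months after tamoxifen. Cells were released from perfused, collagenase-digested livers and collected with beads carrying an antibody to the epithelial surface protein EpCAM. The labels name neither the gene altered in the PLD mice nor the Cre driver, the strain, the age at tamoxifen or any pooling of animals. Whether each library is a separate mouse is not stated either. The p-values below therefore set the difference between the groups against a spread of libraries within a group that may be technical.

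Beta oxidation shortens fatty acids by repeated cycles in the mitochondrial matrix, and each cycle passes through a dehydrogenase, a hydratase, a second dehydrogenase and a thiolase. Long chains are first joined to coenzyme A by acyl-CoA synthetases and then carried across the mitochondrial membranes as carnitine esters. Peroxisomes run a parallel pathway for very long and branched chains. The nuclear receptors of the PPAR family, with the coactivator PGC-1alpha, switch on many of these genes in liver and muscle, and the liver is a main site of the pathway.

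In the PLD libraries RNAs of many enzymes of the mitochondrial cycle and of 3 acyl-CoA synthetases were modestly higher. The uptake gene Cd36 was far lower, and Pdk4 and Crat were modestly lower. Of the 34 genes, 15 rose in PLD and 3 fell (edgeR quasi-likelihood test, Benjamini-Hochberg adjusted p under 0.05). Over all 15334 genes tested, 55.4% were called, with 27.0% higher and 28.4% lower in PLD, so that 44.1% and 8.82% of the 34 genes stand beside 27.0% and 28.4% of all genes. The median log2 fold change was 0.27 for the 34 genes and 0.01 for all genes tested. Values of the PLD and WT libraries did not overlap for 66.2% of all genes, with PLD above WT for 33.0% and below it for 33.2%. Among the 34 genes PLD was above WT for 17 and below it for 4. The summed level of the 34 genes was 2477, 2409 and 2454 CPM (read counts scaled to a common library size with TMM factors) in PLD replicates 1 to 3 and 2224, 2192 and 2474 CPM in WT replicates 1 to 3, and these sums overlapped. Cd36 alone held 298, 289.5 and 381 CPM of the WT sums and 12.6, 27.6 and 32.4 CPM of the PLD sums. Leaving out single libraries gave 10 to 19 rising and 2 to 4 falling genes.

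Marker RNAs of several cell types differed between the groups. Of 15 cholangiocyte markers 14 rose and Cftr fell, with a median log2 fold change of 1.58 and a summed level of 27880 to 36160 CPM in PLD and 8764 to 12560 CPM in WT. Epcam rose by 1.61 ± 0.24 (log2 fold change ± standard error), and none of the 34 genes rose by as much. Among further oxidation genes outside the 34, Acox2 rose by more (2.17 ± 0.26). All 13 endothelial markers fell, with a median of -3.46 and summed levels of 460 to 812 CPM in PLD and 5753 to 7564 CPM in WT. Fibroblast, stellate and smooth muscle markers fell for 12 of 14 (1868 to 4793 CPM in PLD and 9029 to 13990 CPM in WT). Hepatocyte markers fell for 7 of 14 and Cyp2e1 rose, with a negative log2 fold change for 12 and a median of -1.58. Their summed level, 1886 to 5970 CPM in PLD and 1256 to 2470 CPM in WT, was mostly that of Alb, which did not pass, and without Alb it was 458 to 583 CPM in PLD and 171 to 718 CPM in WT. Of 12 macrophage markers 2 rose and 2 fell (712 to 949 CPM in PLD and 887 to 1146 CPM in WT). Without Csf1r their summed level was 444 to 554.5 CPM in PLD and 746 to 1002 CPM in WT. Mrc1 alone held 40.6 to 49.5 CPM of it in PLD and 312 to 498 CPM in WT, so this gap was largely that of Mrc1. For 8 of the 12 genes the values of the groups overlapped. Of 5 mesothelial markers tested Msln rose and 3 fell. Msln made up nearly all of the mesothelial sum in PLD (746 to 1159 CPM in PLD and 38.8 to 43.9 CPM in WT), and the other mesothelial markers summed to 3.03 to 7.33 CPM in PLD and 21.3 to 26.4 CPM in WT. In bulk RNA, fewer cells of a type and less RNA per cell cannot be told apart. The part of these cell types in the changes below was not tested.

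Per exon length, the pathway was led by different genes in the groups. The highest level in PLD was that of Acaa2, the mitochondrial 3-ketoacyl-CoA thiolase, with 96.2 ± 5.1 FPKM (TMM-normalised CPM per kilobase of exon, mean ± SD, n = 3 libraries). Acadl (51.3 ± 3.8 FPKM), the long-chain dehydrogenase, came next, followed by Pdk4 (44.1 ± 3.2), Acsl5 (39.8 ± 3.8) and Etfa (38.5 ± 3.9), whose levels lay within each other's spread. In WT the highest was Cd36 with 89.9 ± 14.0 FPKM, before Pdk4 (65.3 ± 18.1), Acaa2 (52.9 ± 1.8) and Acadl (42.3 ± 3.4). Levels of Pdk4 and Acaa2 in WT were not separated by their spread. The lowest levels in both groups, under 4 FPKM, included Ppargc1a, Acot1, Acot2, Ehhadh, Acox3 and Hadhb. With the longest coding transcript in place of all exons, Acaa2 still ranked 1 in PLD and Cd36 ranked 1 in WT, while Hadha moved up to rank 2 and Hadh to rank 3 in PLD. Acadl, Etfa, Acsl5 and Pdk4 moved down to ranks 4, 7, 9 and 10 in PLD. On this scale Hadhb was at 7.9 in PLD and 5.6 in WT, Acox3 at 4.6 and 5.5, and Acot1 at 4.5 and 4.1.

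**Figure D1:**
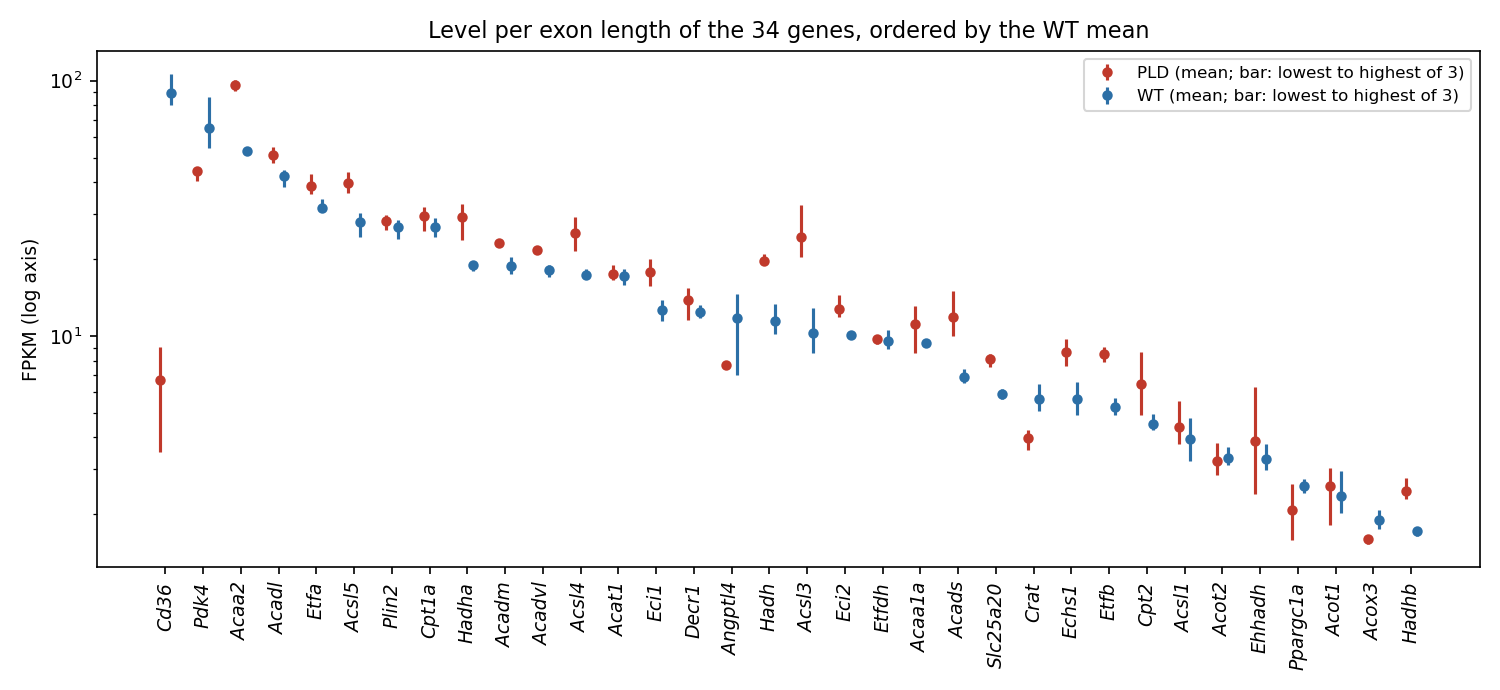
Level of each of the 34 genes in FPKM on a log axis, with PLD in red left of WT in blue; points are means of 3 libraries and bars run from the lowest to the highest library. Cd36 has the highest mean in WT (89.9 FPKM) and lies at 6.74 FPKM in PLD, and Acaa2 has the highest mean in PLD (96.2 FPKM).

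Some of these levels are limited by how reads were assigned. Words of 50 bases that also occur in transcripts of other genes made up 62.4% of the longest Hadhb transcript (Gm13910 and Gm9108), 67.3% for Etfb (Gm45233), 34.03% for Acaa1a (Acaa1b), 33.7% for Acot1 and 27.7% for Acot2. Gm45233 is annotated over Etfb itself, on the same strand. Reads that fit several places or several overlapping genes are left out by the default of the counting program, so the levels of these 5 genes are uncertain. Shares for the other 29 genes were at most 7.19%. The exons of Acadvl overlapped those of Dvl2 on the opposite strand over 42.9% of their length, and the count command names no strand setting.

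The final steps of the cycle were higher in PLD for most of their genes. Of 6 genes for hydratases, hydroxyacyl-CoA dehydrogenases and thiolases, 5 rose, beside 27.0% of all genes tested. Their lowest log2 fold change was 0.03, with a median of 0.62. Leaving out single libraries gave 4 or 5 rising genes. Acaa2 (ENSMUSG00000036880.10, mm10 chromosome 18, 74779197 to 74806208), which cleaves acetyl-CoA from the chain, had 147, 153 and 138 CPM in PLD and 83.3, 78.7 and 78.6 CPM in WT. Every PLD library lay above every WT library, and the spread within each group was small. The log2 fold change was 0.86 ± 0.09, or 1.82-fold (edgeR adjusted p = 2.56e-04), and 0.56 with a gene length trend removed, which still passed (adjusted p = 8.79e-04).

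Hadh, the hydroxyacyl-CoA dehydrogenase of medium and short chains (ENSMUSG00000027984.8, chromosome 3, 131233419 to 131272101), had 95.4, 104 and 94.5 CPM in PLD and 66.6, 50.6 and 53.4 CPM in WT. The groups did not overlap, and WT replicate 1 was the nearest to PLD. The difference was 0.78 ± 0.12 on the log2 scale (edgeR adjusted p = 0.00151). Echs1, the short-chain enoyl-CoA hydratase, had 80.8, 71.2 and 63.0 CPM in PLD and 54.6, 40.7 and 45.0 CPM in WT, and rose by 0.62 ± 0.14 on the log2 scale. Acat1, the acetoacetyl-CoA thiolase that also serves ketone body metabolism, was the member of this group that did not pass. It had 62.0, 70.9 and 64.8 CPM in PLD and 68.6, 65.3 and 59.4 CPM in WT, so that the groups overlapped.

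Hadha and Hadhb encode the alpha and beta subunits of the mitochondrial trifunctional protein, which carries out the last steps for long chains, and both rose. The 300-base windows of their promoters are shown because the genes lie head to head and their RNAs were higher together. The first transcribed bases given by RefSeq are chromosome 5, 30154980 for Hadha on the minus strand and 30155253 for Hadhb on the plus strand, a distance of 273 bases. The windows share 228 bases (30155003 to 30155230), in capitals in the Hadha window below, which is from RefSeq on GRCm38.p6, chr5:30154931-30155230, minus strand.
Hadha: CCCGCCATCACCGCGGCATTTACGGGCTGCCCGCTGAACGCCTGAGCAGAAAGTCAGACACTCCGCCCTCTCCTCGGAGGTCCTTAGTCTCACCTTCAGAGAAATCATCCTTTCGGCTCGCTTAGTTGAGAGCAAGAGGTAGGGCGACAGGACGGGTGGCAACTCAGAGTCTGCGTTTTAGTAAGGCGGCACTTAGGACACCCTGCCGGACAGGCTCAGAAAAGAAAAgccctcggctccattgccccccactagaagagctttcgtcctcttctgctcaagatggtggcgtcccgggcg

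Hadha (ENSMUSG00000025745.12) had 208, 268 and 286 CPM in PLD and 157, 168 and 171 CPM in WT. PLD replicate 1 was the lowest of the PLD libraries and still above WT. The log2 fold change was 0.62 ± 0.14 (edgeR adjusted p = 0.00646). Hadhb (ENSMUSG00000059447.13) had 18.2, 15.1 and 15.4 CPM in PLD and 11.6, 11.7 and 10.9 CPM in WT, with PLD replicate 1 the highest. The difference was 0.51 ± 0.13 on the log2 scale (edgeR adjusted p = 0.0137), and without WT replicate 3 it was 0.48 and no longer passed (adjusted p = 0.0557). The low level of Hadhb beside its partner is one of the values touched by the shared words above.

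Promoter windows were on hand for 29 of the 34 genes (30 windows, 250 bases before to 50 bases after the start). AAGGTCA, the core bound by estrogen-related and other nuclear receptors, was searched on both strands and occurred in 1 of the 30 windows, that of Acadm, and in 4.72% of all 32851 windows. The direct repeat AGGTCANAGGTCA, a full PPAR element in its strict form, occurred in 0 of the 30 and in 0.0396% of all windows, which says only that these letters are not in these windows.

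Among the acyl-CoA dehydrogenases and the electron carriers they feed, 4 of 7 rose, beside 27.0% of all genes tested. Their lowest log2 fold change was 0.03, with a median of 0.28. Leaving out single libraries gave 2 to 6 rising genes. PLD lay above WT for 6 of the 7, beside 33.0% of all genes tested. The dehydrogenases are named for the chain length they take, from very long to short. Acadvl, for very long chains, had 56.5, 58.8 and 59.7 CPM in PLD and 49.0, 45.8 and 50.8 CPM in WT, a log2 fold change of 0.27 ± 0.09. Acadl, for long chains, had 95.3, 103 and 110.4 CPM in PLD and 76.9, 87.7 and 89.6 CPM in WT, with a log2 fold change of 0.28 ± 0.10 that did not pass (edgeR adjusted p = 0.0506). Acadm, for medium chains, had 90.6, 94.1 and 87.0 CPM in PLD and 79.6, 68.1 and 73.5 CPM in WT, a log2 fold change of 0.30 ± 0.10. These differences were small, although the groups did not overlap for any of them. The Acadvl call was lost without any library other than PLD replicate 1 (log2 fold changes 0.23 to 0.30, adjusted p = 0.0693 to 0.12). The Acadm call was lost without PLD replicate 2 (0.28), WT replicate 2 (0.24) or WT replicate 3 (0.30), and Acadl passed without PLD replicate 1 (0.34, adjusted p = 0.0231) and with limma-voom (adjusted p = 0.0489), upper-quartile factors (0.0486) or a replicate block (0.0385). With the gene length trend removed, Acadl was at 0.07 (adjusted p = 0.618) and Acadvl at 0.17 (adjusted p = 0.158).

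Acads, the short-chain dehydrogenase (ENSMUSG00000029545.13, chromosome 5, 115110299 to 115119346), had 24.0, 33.98 and 22.6 CPM in PLD and 16.8, 14.8 and 15.5 CPM in WT. PLD replicate 2 was the highest, and the WT libraries lay close together. Its log2 fold change of 0.78 ± 0.17 (edgeR adjusted p = 0.00702) was the largest of the 4 acyl-CoA dehydrogenase genes among the 34. The ratio of Acads to Acadvl per exon length was 0.504, 0.684 and 0.448 in PLD and 0.405, 0.383 and 0.361 in WT. The groups did not overlap, and the exact two-sided permutation test gave p = 0.1, the smallest value that 3 against 3 libraries allow (0.3 adjusted over the 3 ratios computed, which were chosen with the values known).

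Electrons from these enzymes pass to the electron transfer flavoprotein, made of the Etfa and Etfb products, and on to its ubiquinone oxidoreductase, the Etfdh product. Etfb rose by 0.69 ± 0.16, with 9.23, 10.6 and 9.97 CPM in PLD and 5.72, 6.01 and 6.67 CPM in WT. With the gene length trend removed Etfb was at 0.34 and did not pass (adjusted p = 0.104). Etfa had 67.4, 78.8 and 65.9 CPM in PLD and 55.9, 56.0 and 62.8 CPM in WT, a log2 fold change of 0.28 ± 0.11 that passed only without PLD replicate 1 (0.32, adjusted p = 0.0454; 0.0591 with all libraries), and it was at 0.03 with the length trend removed. Etfdh had 70.0, 73.7 and 74.9 CPM in PLD and 66.7, 68.3 and 79.4 CPM in WT, and the groups overlapped.

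Unsaturated chains need isomerases and a reductase to enter the cycle. Eci1 and Eci2, both enoyl-CoA isomerases, rose by 0.50 ± 0.13 and 0.34 ± 0.11 on the log2 scale. Eci1 had 33.4, 42.7 and 37.4 CPM in PLD and 29.4, 26.7 and 24.2 CPM in WT. Eci2 had 80.0, 66.8 and 65.5 CPM in PLD and 57.1, 56.3 and 54.3 CPM in WT. Neither gene overlapped between the groups, yet the calls were close to the threshold. Without WT replicate 3 neither passed (0.44 for Eci1, adjusted p = 0.057; 0.32 for Eci2, adjusted p = 0.0924), and Eci2 was also lost without WT replicate 1 (0.36) or WT replicate 2 (0.35). With the gene length trend removed Eci1 was at 0.31 and did not pass (adjusted p = 0.0763). Decr1, the 2,4-dienoyl-CoA reductase, had 44.6 CPM in PLD replicate 1 and 59.7 and 57.1 CPM in PLD replicates 2 and 3, against 48.0, 45.6 and 51.3 CPM in WT. It passed only without PLD replicate 1 (log2 fold change 0.28, adjusted p = 0.0372).

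**Figure D2:**
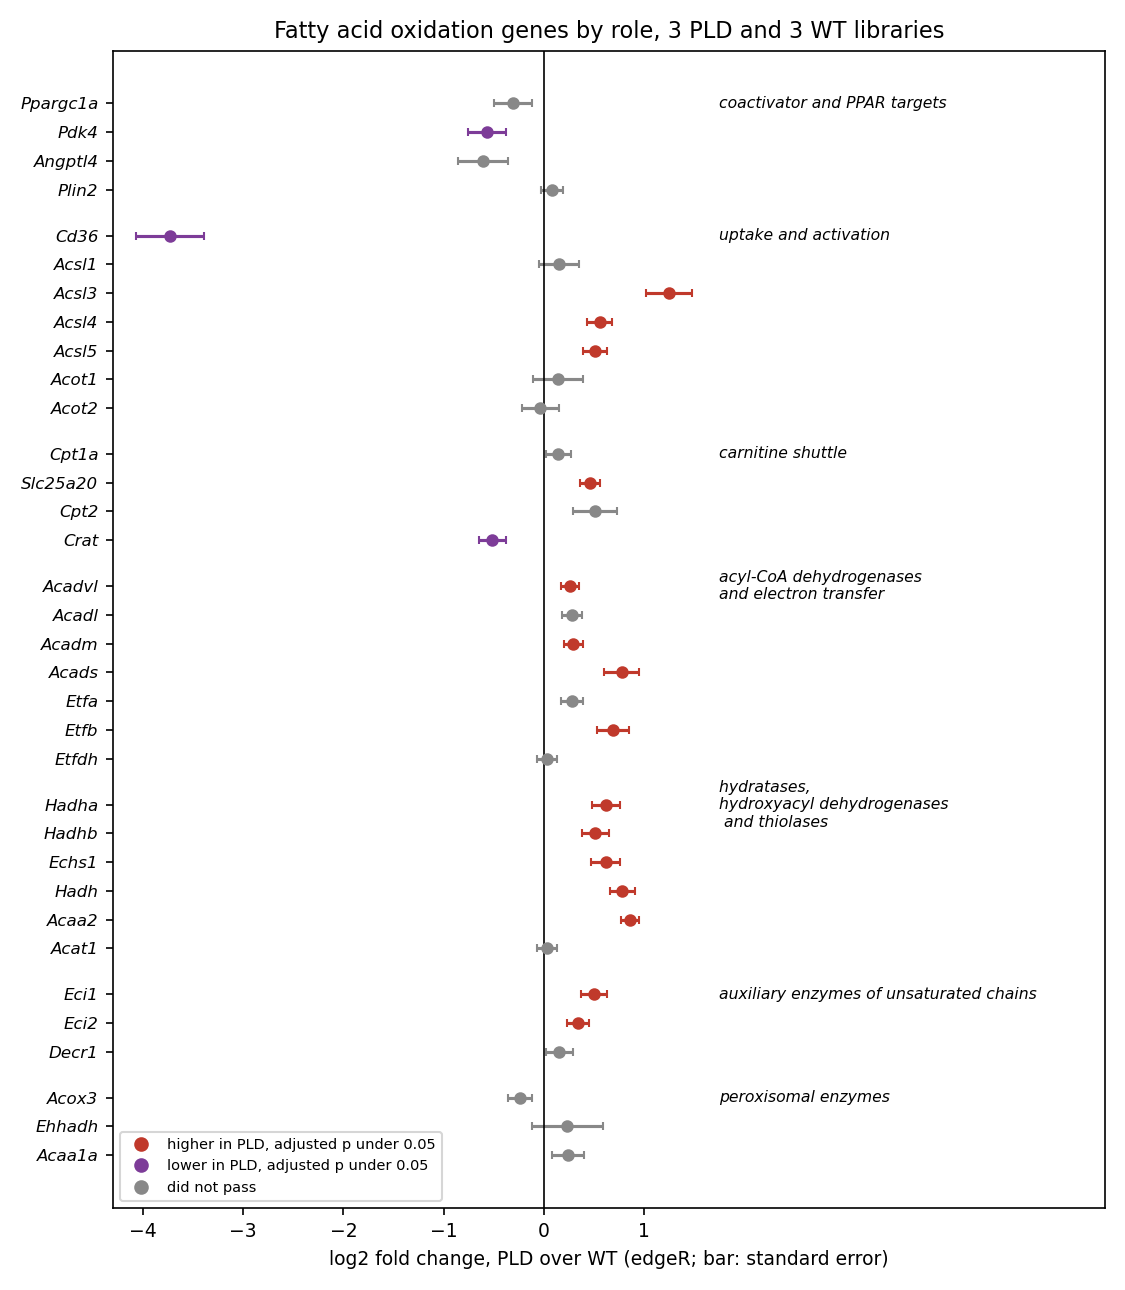
Log2 fold change of PLD over WT for the 34 genes, grouped by role; points are edgeR estimates, bars standard errors, and colours the call at an adjusted p of 0.05. The 16 genes of the dehydrogenase, electron transfer, hydratase, thiolase and unsaturated chain groups all lie to the right of 0, and Cd36 lies far to the left at -3.73.

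Of the 4 carnitine shuttle genes 1 was higher and 1 lower, near the shares of all genes tested (27.0% higher and 28.4% lower). Cpt1a, the outer membrane transferase that sets the rate of entry and is inhibited by malonyl-CoA, had 235, 196 and 244 CPM in PLD and 202, 187 and 222 CPM in WT. Its groups overlapped (log2 fold change 0.15 ± 0.12, edgeR adjusted p = 0.343). The other genes of its kind were low, with Cpt1b at 0.36 CPM or less in every library and Cpt1c at 4.20 to 7.62 CPM in PLD and 10.1 to 10.7 CPM in WT. Slc25a20, the translocase that exchanges acylcarnitine for carnitine across the inner membrane (ENSMUSG00000032602.6, chromosome 9, 108662088 to 108684641), had 36.7, 41.2 and 39.9 CPM in PLD and 27.4, 30.1 and 28.2 CPM in WT. It rose by 0.46 ± 0.10 (edgeR adjusted p = 0.0064), with no overlap.

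Cpt2, which returns the chain to coenzyme A in the matrix, had 20.7 CPM in PLD replicate 1 and 11.7 and 14.0 CPM in PLD replicates 2 and 3, against 10.4, 11.8 and 10.3 CPM in WT. Its log2 fold change of 0.51 ± 0.22 did not pass, and it passed without PLD replicate 2 (0.69, adjusted p = 0.0367). Crat, the carnitine acetyltransferase, went the other way. It had 23.1, 21.8 and 19.3 CPM in PLD and 34.9, 29.3 and 27.3 CPM in WT, without overlap, and fell by 0.51 ± 0.13 on the log2 scale (edgeR adjusted p = 0.0131).

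Fatty acid uptake and activation held the extremes of the pathway in both directions. Cd36, the membrane fatty acid translocase, which capillary endothelium, macrophages and adipocytes are known to carry (ENSMUSG00000002944.15, chromosome 5, 17781690 to 17888801), had 12.6, 27.6 and 32.4 CPM in PLD and 298, 289.5 and 381 CPM in WT. All PLD libraries were far below all WT libraries, and PLD replicate 1 was the lowest. The log2 fold change was -3.73 ± 0.34, a level 13.3-fold higher in WT (edgeR adjusted p = 1.52e-04). Cd36 was the gene of the 34 that still passed when a change of more than 1 on the log2 scale was asked for.

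The fall of Cd36 was close in size to that of the endothelial markers, whose median was -3.46. Pecam1, the endothelial adhesion protein, had 61.4, 77.4 and 95.0 CPM in PLD and 826, 1079 and 905 CPM in WT. Per 100 Pecam1 reads there were 20.5, 35.6 and 34.1 Cd36 reads in PLD and 36.0, 26.8 and 42.1 Cd36 reads in WT. These ratios overlapped (exact two-sided permutation test, p = 0.5, and 0.5 adjusted over 3 ratios, where 3 against 3 libraries cannot go below 0.1). Pecam1 was the only endothelial gene used for a tested ratio. The log2 fold changes of the 13 endothelial markers ran from -4.24 to -2.62, and the overlap did not hold for every marker. Cdh5 had 65.2, 73.9 and 95.7 CPM in PLD and 549, 670 and 661 CPM in WT. Cd36 per Cdh5 read was thus lower in every PLD library than in any WT library. Other markers, such as Vwf (-4.07 ± 0.36) and Tek (-3.85 ± 0.25), fell by more than Cd36. The endothelial part in the fall of Cd36 was not tested. Of the adipocyte markers only Fabp4, a fatty acid binding protein gene also known from capillary endothelium, was tested, and it fell by 4.30 ± 0.48. The 7 other adipocyte markers had too few reads to be tested and summed to 0.671 to 1.86 CPM in PLD and 0.413 to 0.741 CPM in WT, with Lep at 0 reads. The highest of them was Cidec, with 1.51, 0.61 and 0.96 CPM in PLD and 0.24, 0.18 and 0.19 CPM in WT. The macrophage genes Csf1r and Lyz2 rose by 1.38 ± 0.18 and 0.34 ± 0.11, and Mrc1 and Cd163 fell by 3.12 ± 0.20 and 1.52 ± 0.43.

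**Figure D3:**
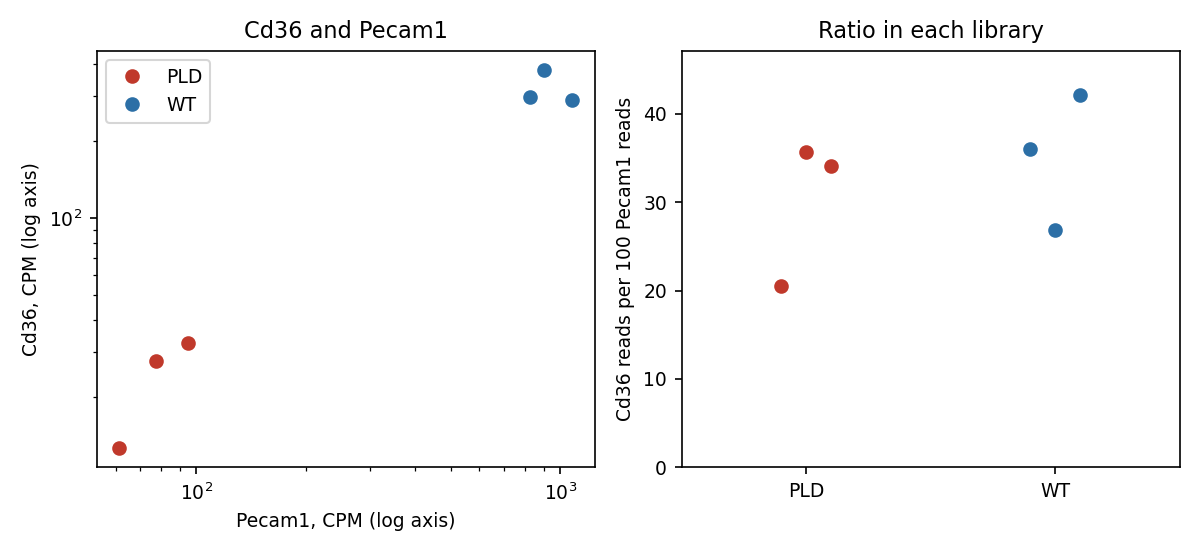
Left, Cd36 against Pecam1 in CPM in each library, both on log axes; right, Cd36 reads per 100 Pecam1 reads in each library, PLD in red and WT in blue. Both genes are lower in all 3 PLD libraries, and the ratio runs from 20.5 to 35.6 in PLD and from 26.8 to 42.1 in WT.

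The long-chain acyl-CoA synthetases join fatty acids to coenzyme A. Of their 4 genes among the 34, 3 rose, beside 27.0% of all genes tested. Acsl3, a form of the endoplasmic reticulum and lipid droplets (ENSMUSG00000032883.15, chromosome 1, 78657825 to 78707743), had 141, 88.7 and 89.1 CPM in PLD and 55.9, 37.2 and 41.0 CPM in WT. The groups did not overlap, and replicate 1 was the highest in each. Its log2 fold change of 1.25 ± 0.23, or 2.38-fold, was the largest rise among the 34 genes (edgeR adjusted p = 0.0029).

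Acsl4, which prefers arachidonic acid, had 158, 117 and 136 CPM in PLD and 90.4, 90.8 and 98.6 CPM in WT, a rise of 0.56 ± 0.13 on the log2 scale. Acsl5, a form of mitochondria and endoplasmic reticulum that is prominent in intestine, had 213.5, 191 and 177 CPM in PLD and 119, 147 and 141.5 CPM in WT, a rise of 0.51 ± 0.12. Acsl1, the main form of liver and fat, had 58.3, 40.1 and 39.6 CPM in PLD and 50.0, 33.96 and 40.0 CPM in WT, so that the groups overlapped and replicate 1 was the highest in each.

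Acsl5 was the most abundant synthetase gene per exon length in every library. It made up 39.5%, 46.1% and 42.3% of the summed synthetase FPKM in PLD and 41.5%, 51.4% and 48.0% in WT. The share of Acsl3 was 29.2%, 23.9% and 23.8% in PLD and 21.8%, 14.5% and 15.5% in WT, without overlap. Acsl4 held 25.4% to 29.4% in PLD and 28.4% to 30.1% in WT, and Acsl1 held 4.41% to 5.00% in PLD and 5.50% to 8.12% in WT. Per longest coding transcript the Acsl1 share was 10.2% to 11.4% in PLD and 12.4% to 17.8% in WT, while Acsl5 was still the highest of the 4 genes in every library and the Acsl3 share was 22.5% to 27.3% in PLD and 13.4% to 19.6% in WT. The ratio of Acsl3 to Acsl5 was 0.739, 0.519 and 0.563 in PLD and 0.525, 0.282 and 0.323 in WT, overlapping through replicate 1 of WT (exact two-sided permutation test, p = 0.2, and 0.3 adjusted over 3 ratios). The thioesterases that undo the activation, Acot1 of the cytosol and Acot2 of mitochondria, stayed at 6.28 to 11.9 CPM in PLD and 6.84 to 11.6 CPM in WT and did not pass.

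**Figure D4:**
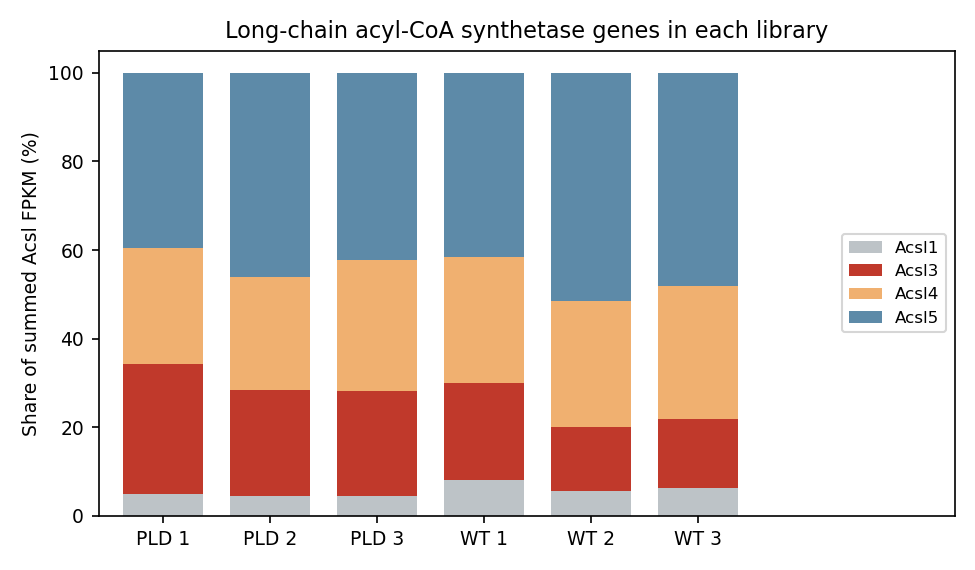
Share of each long-chain acyl-CoA synthetase gene in the summed FPKM of the family, as stacked bars for each library, PLD left of WT. The Acsl3 share (red) is 23.8% to 29.2% in the PLD libraries and 14.5% to 21.8% in the WT libraries; Acsl6, near 0, is not drawn.

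Among the coactivator and PPAR target genes outside the cycle, 1 of 4 fell, beside 28.4% of all genes tested. Their highest log2 fold change was 0.08. Pdk4, the kinase that shuts pyruvate dehydrogenase and so turns cells from glucose to fat (ENSMUSG00000019577.6, chromosome 6, 5483351 to 5496309), had 161, 142 and 162 CPM in PLD and 192, 193.5 and 303 CPM in WT. PLD lay below WT, and WT replicate 3 stood above the other libraries. The log2 fold change was -0.57 ± 0.19 (edgeR adjusted p = 0.0349). Without WT replicate 3 it was -0.31 and did not pass (adjusted p = 0.0755), and the call was also lost without PLD replicate 2 (-0.50, adjusted p = 0.12) or PLD replicate 3 (-0.59, adjusted p = 0.0734).

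Angptl4, an inhibitor of lipoprotein lipase, had 27.3, 26.2 and 28.3 CPM in PLD and 25.0, 48.4 and 51.5 CPM in WT. WT replicate 1 lay with the PLD libraries. The log2 fold change of -0.61 ± 0.25 did not pass (edgeR adjusted p = 0.0731). Without WT replicate 1 it was -0.87 and passed (adjusted p = 0.00109), and it also passed with DESeq2 (-0.62, adjusted p = 0.045) and with no filter on low counts (-0.59, adjusted p = 0.0472). Plin2, a coat protein of lipid droplets, had 104, 90.9 and 102 CPM in PLD and 84.2, 99.8 and 97.1 CPM in WT, with overlap. Ppargc1a, which encodes PGC-1alpha, was low at 10.5, 13.3 and 17.3 CPM in PLD and 16.8, 18.1 and 16.0 CPM in WT. It did not pass (log2 fold change -0.31 ± 0.19), except without PLD replicate 3 (-0.50, adjusted p = 0.0487).

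Of the 3 peroxisomal genes 0 passed in edgeR's test, 0 at an unadjusted p under 0.05 and 0 with DESeq2 or limma-voom. Acox3, an oxidase of branched chains, had 17.6, 18.7 and 19.2 CPM in PLD and 24.0, 21.3 and 20.1 CPM in WT, below WT throughout but with a log2 fold change of only -0.24 ± 0.12, which was 0.04 after a gene length trend was removed. Ehhadh, the bifunctional enzyme, had 18.8 CPM in PLD replicate 1 and 7.14 and 8.65 CPM in PLD replicates 2 and 3, against 11.2, 8.90 and 9.21 CPM in WT. Acaa1a, the peroxisomal thiolase, had 37.7, 57.6 and 51.7 CPM in PLD and 42.2, 40.4 and 41.8 CPM in WT, and it passed only without PLD replicate 1 (log2 fold change 0.41, adjusted p = 0.00986). PLD replicate 1 stood apart from the other PLD libraries for all of Ehhadh, Acaa1a, Decr1, Cpt2 and Acsl3, high for some and low for others. In the same library the summed cholangiocyte markers were highest of the PLD libraries (36160 CPM). Its summed endothelial markers were the lowest of them (460 CPM, against 671 and 812 CPM in PLD replicates 2 and 3). So were its fibroblast, stellate and smooth muscle markers (1868 CPM, against 3867 and 4793 CPM). Its hepatocyte markers were mixed, with Alb at 1303 CPM, against 5090 and 5512 CPM in PLD replicates 2 and 3, and the other 13 markers at 583 CPM, against 477 and 458 CPM. A link between these marker levels and the genes picked was not tested.

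**Figure D5:**
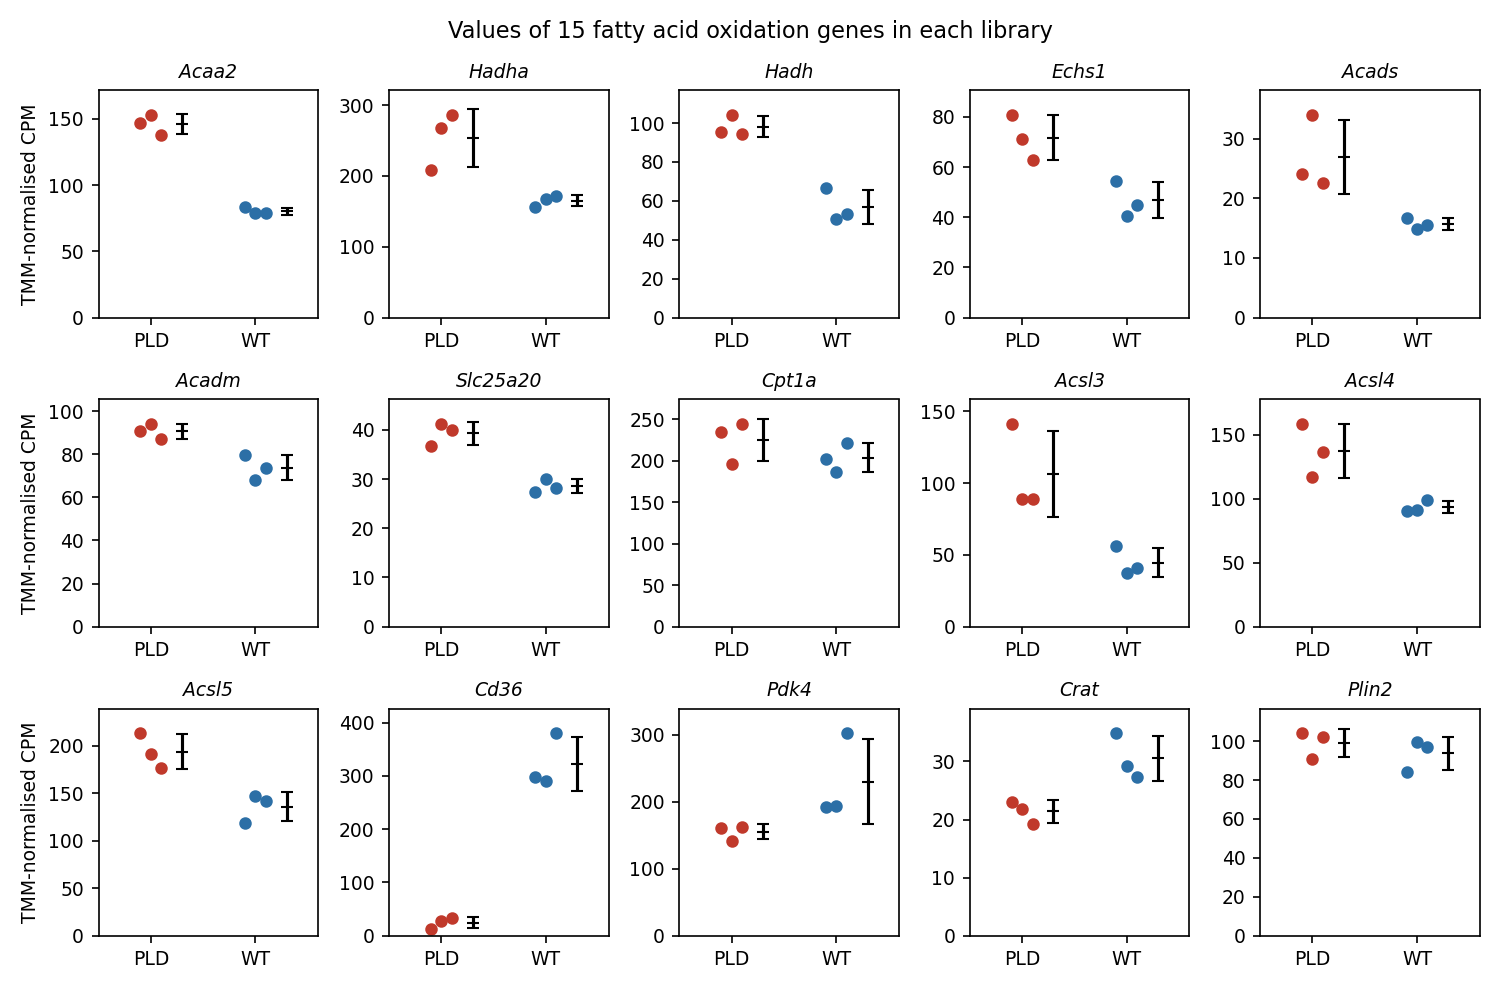
TMM-normalised CPM of 15 of the genes in each library, PLD in red left of WT in blue, with the mean and SD of 3 libraries in black; each panel starts at 0. Acaa2, Hadh, Slc25a20 and Acsl3 are higher in every PLD library, Cd36, Pdk4 and Crat lower, and Cpt1a and Plin2 overlap.

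Other genes of the pathway were counted by lists, here and below, beside 27.0% higher and 28.4% lower of all genes tested. Of 19 further peroxisomal genes tested 6 rose and 2 fell, with a median log2 fold change of 0.35. Acox2, an oxidase of bile acid intermediates, rose by 2.17 ± 0.26 and the peroxisomal fatty acyl transporter Abcd3 by 0.63 ± 0.11. Of 23 further mitochondrial genes tested 8 rose and 3 fell, with a median of 0.23. Ech1, a dienoyl-CoA isomerase, rose by 0.83 ± 0.09 and Hsd17b10, a short-branched-chain hydroxyacyl-CoA dehydrogenase, by 0.87 ± 0.12, while Acadsb, for short branched chains, fell by 0.78 ± 0.11. Citrate cycle genes, which burn the acetyl-CoA made, rose for 12 of 18, with a median of 0.42, a lowest value of -0.04 and examples in Sdhd (0.78 ± 0.11), Dld (0.76 ± 0.10), Sdhb (0.72 ± 0.10) and Idh2 (0.68 ± 0.12).

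Regulators went both ways, with 5 of 16 higher and 4 lower. Ppard, a widely expressed PPAR gene, rose by 0.83 ± 0.13 and Hnf4a, a nuclear receptor of liver epithelium, by 2.01 ± 0.35, while Rxra, the common PPAR partner, fell by 0.89 ± 0.09 and Lpin1 by 1.00 ± 0.14. Pparg, named after its values were seen, had 81.5, 36.5 and 42.8 CPM in PLD and 13.0, 23.8 and 13.0 CPM in WT and rose by 1.69 ± 0.36. Ppara, the form best known from liver fat oxidation and named likewise, was scarce, with 0.78 to 1.17 CPM in PLD and 1.30 to 2.36 CPM in WT, and fell by 0.93 ± 0.33. On the malonyl-CoA and AMPK axis 4 of 10 genes rose and 3 fell. Acacb, whose product makes the malonyl-CoA that restrains Cpt1a, fell by 1.70 ± 0.30, and of the AMPK beta subunits Prkab1 rose by 1.24 ± 0.12 and Prkab2 fell by 1.78 ± 0.14.

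Of 18 further uptake, binding and activation genes tested 4 rose and 7 fell, among them Fabp5 (-1.58 ± 0.23), Acsm3 (-3.05 ± 0.28) and Fabp4. Lipolysis and lipid droplet genes rose for 4 of 16 and fell for 5. The triglyceride synthase gene Dgat2 rose by 2.63 ± 0.23 and the droplet coat gene Plin3 by 0.88 ± 0.10, while Mgll, a monoglyceride lipase gene, fell by 2.87 ± 0.22 and Gpihbp1, the capillary anchor of lipoprotein lipase, by 3.15 ± 0.23, beside the endothelial median of -3.46. Ketone body genes rose for 3 of 7 and fell for 2, with Slc16a1, a monocarboxylate transporter, at 1.25 ± 0.09, Bdh1 at 1.96 ± 0.45 and Oxct1, which activates ketone bodies for use, at 0.38 ± 0.09, while Bdh2 fell by 1.54 ± 0.31. Of 11 further PPAR target genes tested 3 rose and 2 fell. Vnn1, a pantetheinase gene, rose by 3.15 ± 0.36 and Aqp3, a water and glycerol channel gene, by 5.11 ± 0.61, and Creb3l3 fell by 2.15 ± 0.51.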

How the data were processed

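Polyadenylated RNA of 3 PLD and 3 WT cholangiocyte preparations was analysed. The values are unnormalised gene counts that the authors deposited in 1 table for each library, made with featureCounts 1.6.0 on GENCODE vM25 of mm10, per the file headers. The command names no option for strand, paired ends or multi-mapping. Per the submitters' processing notes, the tools were STAR 2.7.4a, SAMtools 1.12 and DESeq2 1.26.0. Libraries held 15768561 to 16710548 counted reads, so 3 reads equal 0.180 to 0.190 CPM.

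Symbols were matched by gene ID for 55141 of 55401 IDs. Counts were tested in edgeR 4.0.16 (R 4.3.3), with filterByExpr (15334 genes kept), TMM factors (0.922 to 1.04), the quasi-likelihood F test of PLD over WT without covariates and Benjamini-Hochberg adjustment over all genes at 0.05. The standard error is the log2 fold change over the square root of F. FPKM is the normalised CPM per kilobase of all exons. Every one of the 34 genes is named, and of other lists up to 4 genes with the smallest p, unless stated. Epcam, Cftr, Alb, Vwf, Tek, Cpt1b, Cpt1c, Cidec and Lep are named outside this rule. Some genes that this rule names are not reported here. Genes and lists were chosen with earlier results of these data known. Lists are described by counts and medians, without a set test. Alternatives were DESeq2 1.42.0, limma-voom (limma 3.58.1), other factors and filters, removal of a gene length trend, a replicate block, a minimum change and leaving out each library. Levels per longest coding transcript (GENCODE vM21) and marker sums without the most abundant gene were added after seeing the data. Functions were tested on simulated data. Replicate pairs differed by more than sampling noise (chi-square per degree of freedom 9.72 to 63.9).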

Additional observations from a re-analysis of the deposited data

How the results depend on the processing

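Without single libraries, 10 to 19 of the 34 genes were higher and 2 to 4 lower in PLD, with 3173 to 4183 and 3626 to 4562 of all genes. Asking for a change of more than 1 on the log2 scale left 0 higher and 1 lower of the 34 genes (Cd36), and 626 higher and 1650 lower of all genes. The other settings gave 13 to 16 higher and 3 or 4 lower of the 34 genes. Of 510 values of single genes under the alternatives, 39 no longer passed, 13 newly passed and 0 changed sign with a call. Apart from the minimum change, 11 of the 18 called genes kept their call under every alternative run (Cd36, Crat, Slc25a20, Acsl3, Acsl4, Acsl5, Acads, Hadha, Echs1, Hadh and Acaa2). Removing the gene length trend ended the calls of Acadvl (adjusted p = 0.158), Etfb (0.104) and Eci1 (0.0763) and added Cpt1a (0.0476). Testing with no filter on low counts ended the calls of Acadvl (0.104) and Acadm (0.0663) and added Angptl4 (0.0472). The causes were not tested. Same-numbered libraries deviated together with correlations of 0.16, 0.04 and 0.06, and 1 of 3 PLD libraries correlated best with its own number. Such values from 3 libraries per group cannot show or exclude that the numbers pair the samples. With the replicate block, 15 of the 34 genes were higher and 3 lower, with 3920 and 4242 of all genes; Acadvl lost its call (0.0701) and Acadl gained one (0.0385). Shares of reads and ratios of low genes such as Etfb, Hadhb and Cpt2 are limited by counting error as well as by 3 libraries per group.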
